A study of Homo sapiens with 18 samples.

Results

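EHF was knocked down with short hairpin RNAs in CAL27, an established cell line from a human head and neck squamous cell carcinoma, and the transcriptome was read by RNA sequencing. The comparison described here sets 4 knockdown libraries, 2 from the hairpin named sh 64 and 2 from the hairpin named sh 65, against 2 libraries from control cells that carry the sh Control construct per the count table. These are 6 of the 16 RNA libraries and of the 18 samples of the series. The other samples are A253 and SCC25 cells with and without EHF overexpression, and a CAL27 EHF ChIP sample with its input DNA, none of which enter the comparison. All 6 CAL27 libraries came from cells in regular medium, and only the hairpin is said to differ. Whether the knockdown cells were pools or clones, and whether replicates were separate cultures, is not given in the sources used here, so p-values here reflect the spread among these libraries alone, and that spread may be technical. The hairpin names follow the count table. The TPM table carries the names sh 64 and sh 65 the other way round, and the labels say only Knockdown 1 and Knockdown 2, so no result can be tied to one hairpin's identity. The mean over both hairpins, and the set of genes moved alike by both, do not depend on the names.

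EHF is a transcription factor of the ETS family that binds GGAA-containing DNA and is largely restricted to epithelia, where it is known as a regulator of keratinocyte differentiation. The stress genes followed here belong to a few textbook programmes. In the integrated stress response, kinases that sense amino acid shortage, double-stranded RNA, haem shortage or misfolded protein in the endoplasmic reticulum slow translation in general and favour that of ATF4, which switches on amino acid synthesis and transport genes. The heat shock response raises cytosolic chaperones, NRF2 raises enzymes of detoxification and glutathione metabolism, and the interferon response raises antiviral genes through a complex that contains STAT2 and IRF9. Stressed or wounded squamous epithelium also switches on its own keratins (KRT6, KRT16, KRT17) and alarmins of the S100 family.

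Library totals ran from 7068155 to 19962159 counts, and the replicates of a group differed by more than counting noise, with a chi-square of 2.61 per degree of freedom for the controls, 5.42 for sh 64 and 4.43 for sh 65. Levels are given as CPM, counts per 1000000 of the scaled library total. They compare a gene between libraries but not 1 gene with another, since they are not divided by gene length. The first principal component of log2 CPM held 49.3% of the variance and parted the controls from the knockdown libraries, and the next held 25.3% and parted the hairpins. Replicate 1 of sh 64 stood apart in the chaperone gene HSPA5, which is given below by library. All 10 squamous epithelial markers, among them KRT5, TP63 and DSG3, were expressed. Their summed level was 7240 to 7535 CPM in the controls. The 10 fibroblast markers summed to at most 16.8 CPM in any library, the 11 leukocyte markers to at most 47.6 CPM and the 8 endothelial markers to at most 8.62 CPM, and CD3D, MS4A1 and TYROBP were at 0 in all 6 libraries.

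EHF itself stood at 962 and 992 CPM in the controls, 497 and 526 with sh 64 and 444 and 469 with sh 65. All 4 knockdown libraries lay below both controls, and each kept about as much EHF as the others. The mean was 977 ± 20.9 CPM in the controls (SD, n = 2) and 484 ± 35.4 CPM in the knockdown libraries (SD, n = 4), a 2.02-fold lower level (log2 change -1.02, SE 0.059, adjusted p = 1.35e-08, edgeR quasi-likelihood test with Benjamini-Hochberg adjustment over all genes tested, as for every adjusted p below). The fall was -0.93 on the log2 scale with sh 64 and -1.10 with sh 65, and the difference between them, -0.16, did not pass the threshold (95% interval -0.31 to -0.013, adjusted p = 0.23). The cells of both hairpins still expressed EHF.

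Of 13629 genes tested, 2560 passed an adjusted p of 0.05 for the mean of both hairpins against control, 18.8% of the genes. There were 1346 higher (9.88%) and 1214 lower (8.91%). Changes of 2-fold or more numbered 293 (2.15%), of which 234 were rises (1.72% of the genes). All 4 knockdown libraries lay above both controls for 2421 genes (17.8%) and below both for 2408 (17.7%). Genes named by rule below, apart from EHF and a fixed set of stress genes, had to show such a gap. For them a lack of overlap was fixed in advance and is no support. Taken one at a time, sh 64 called 2133 genes and sh 65 called 1994. Both hairpins called 1016 genes (7.45%) in the same direction, 576 higher (4.23%) and 440 lower (3.23%), and 27 in opposite directions. These sets share the same 2 control libraries, so the number called alike is a description and not a test. The hairpins differed from each other for 728 genes (5.34%), and 88 of the 1016 genes called alike also differed in size between hairpins. Higher calls made up 52.6% of calls on the counts and 40.9% on log2(TPM + 1), with 814 higher and 1178 lower. Against the fit to counts, the log2 changes on that scale were shifted by a median of -0.053 over all genes. Without control replicate 1 or 2 the mean called 937 or 1037 genes, and the number called alike was 390 or 446. It was 530 without sh 64 replicate 1. Hairpin differences numbered 263 and 419 without sh 64 replicate 1 and 2.

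**Figure D1:**
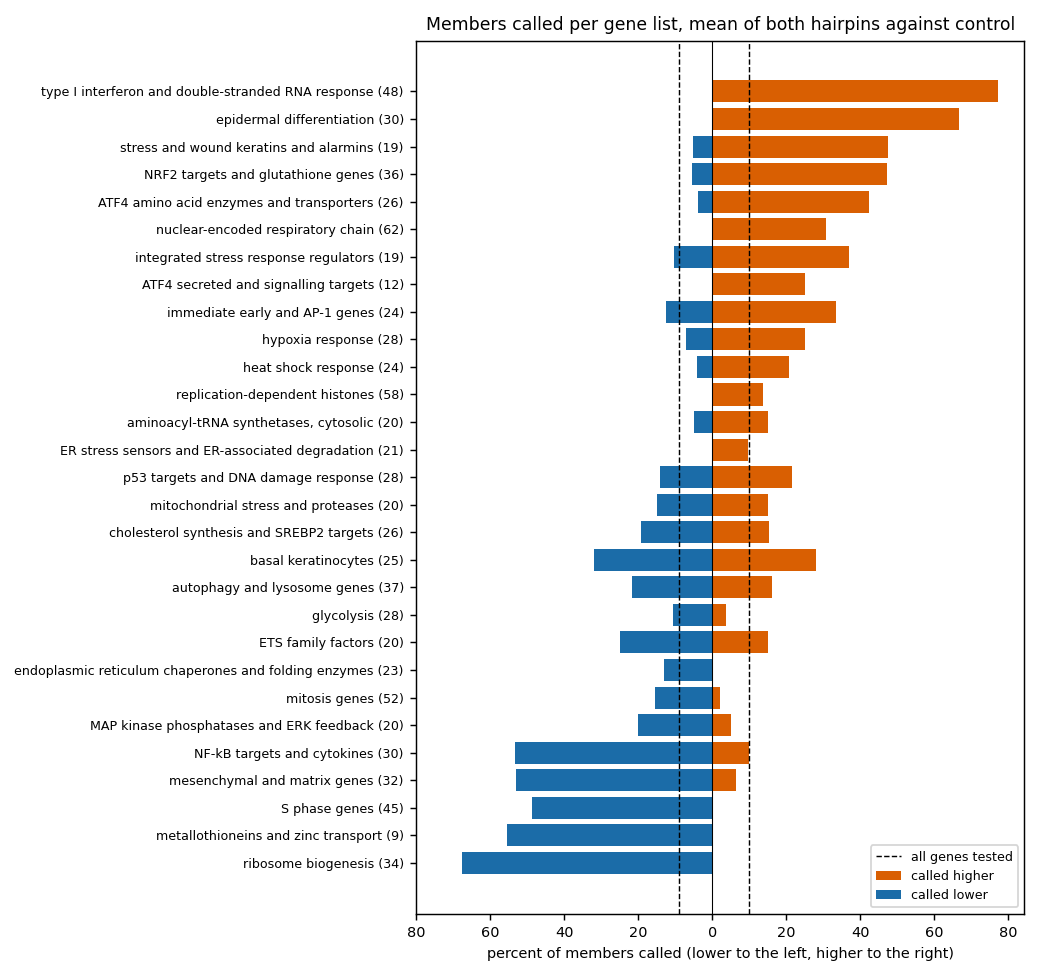
Share of tested members of 29 gene lists, cell type marker lists left out, called higher (orange, to the right) or lower (blue, to the left) at an adjusted p under 0.05 for the mean of both hairpins against control. The number of members tested is in brackets, and the dashed lines give the share over all 13629 genes, 9.88% higher and 8.91% lower. The interferon list reaches 77.1% higher and the ribosome biogenesis list 67.6% lower.

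Many genes of the amino acid branch of the ATF4 response were higher with both hairpins. Of 28 genes for amino acid enzymes and transporters, 26 were expressed enough to test, 11 rose and 1 fell against the backgrounds of 9.88% and 8.91%, and 10 of those that rose did so with each hairpin (4.23% of all genes). The list's median log2 change was 0.30, against 0.0025 over all genes. The genes that rose cover serine synthesis (PHGDH, PSAT1, PSPH), asparagine synthesis (ASNS), transport of neutral amino acids, glycine and cystine (SLC1A4, SLC6A9, SLC7A11, SLC3A2), mitochondrial one-carbon metabolism (ALDH1L2), transsulphuration (CBS) and mitochondrial phosphoenolpyruvate synthesis (PCK2). Amino acid genes higher with both hairpins numbered 4 leaving out control replicate 1 and 5 leaving out control replicate 2. Amino acid genes called lower numbered 0 leaving out control replicate 1 or 2.

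ASNS makes asparagine and is a textbook ATF4 target. Its promoter is shown because it carries the composite element of ATF4 and C/EBP proteins, and ASNS rose with both hairpins. The 250 bases before the RefSeq start of ASNS, on the minus strand of GRCh38.p14 at chr7:97872409-97872658, are printed 5′ to 3′ with the match to TGATGNAA in capitals.
ASNS: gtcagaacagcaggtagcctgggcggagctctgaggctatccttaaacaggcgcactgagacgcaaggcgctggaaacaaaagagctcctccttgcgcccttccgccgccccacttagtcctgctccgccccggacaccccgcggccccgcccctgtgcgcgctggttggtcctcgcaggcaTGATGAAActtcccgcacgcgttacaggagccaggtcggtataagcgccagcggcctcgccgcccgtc
The match begins 68 bases before the start. TGATGNAA, searched on both strands, occurred in 1.3% of the 10590 promoters matched to tested genes, in 4 of the 20 promoters available for the amino acid list and in 1 of the 8 available for its members called alike. A match is a description of the letters only.

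ASNS stood at 37.2 and 44.6 CPM in the controls, 67.5 and 79.8 with sh 64 and 92.6 and 97.9 with sh 65. All 4 knockdown libraries were above both controls, and sh 65 was above sh 64. The mean rise was 2.02-fold (log2 change 1.01, SE 0.092, adjusted p = 7.97e-07), and it was larger with sh 65 than with sh 64 by 0.38 on the log2 scale (adjusted p = 0.034). PHGDH, the enzyme at the entry of serine synthesis, stood at 39.0 and 44.6 CPM in the controls, 93.3 and 77.4 with sh 64 and 94.99 and 109 with sh 65. It rose 2.22-fold (log2 change 1.15, SE 0.095, adjusted p = 4.08e-07). The difference between hairpins did not pass (95% interval 0.03 to 0.46). SLC1A4, a transporter of alanine, serine and cysteine, stood at 9.95 and 12.02 CPM in the controls, 23.9 and 24.2 with sh 64 and 24.7 and 25.1 with sh 65. Its 4 knockdown values lay within about 1 CPM of each other, and it rose 2.18-fold (log2 change 1.13, SE 0.12, adjusted p = 3.04e-06, interval of the hairpin difference -0.21 to 0.32). ALDH1L2 rose by 1.09 on the log2 scale, SLC6A9 by 0.87, PCK2 by 0.78, CBS by 0.63, SLC7A11 by 0.47, PSAT1 by 0.43, PSPH by 0.31 and SLC3A2 by 0.25. SLC6A9 and PSAT1 rose more with sh 65 (differences 0.59 and 0.35, adjusted p = 0.0209 and 0.01). The mitochondrial folate enzymes that ATF4 also drives did not pass, with MTHFD2 at -0.04 and SHMT2 at -0.042, and ALDH18A1, an enzyme of proline synthesis, fell by 0.25. CHAC1, a glutathione-degrading enzyme, stood at 3.98 and 4.24 CPM in the controls, 5.18 and 7.36 with sh 64 and 11.8 and 5.45 with sh 65. All 4 knockdown values were above the controls but scattered, and the mean did not pass (0.81, adjusted p = 0.0673). Taken alone, sh 65 passed (1.08, adjusted p = 0.0407) and sh 64 did not (0.54, adjusted p = 0.312). The call was lost for PSPH and SLC3A2 without control replicate 1 or 2 (adjusted p 0.0732 to 0.133). The mean change of CHAC1 passed without sh 65 replicate 2 (adjusted p = 1.02e-04). The hairpin difference was no longer called for SLC6A9 and PSAT1 without sh 64 replicate 1 (adjusted p 0.131 to 0.249) and ASNS without sh 64 replicate 1 or sh 65 replicate 2 (adjusted p 0.0569 to 0.317). Other settings ended the call of SLC7A11 on log2(TPM + 1) with no filter (adjusted p = 0.07), PSPH on log2(TPM + 1) with no filter and with the hairpins as 1 group (adjusted p 0.0584 to 0.0807) and SLC3A2 on log2(TPM + 1) and on log2(TPM + 1) with no filter (adjusted p 0.0513 to 0.0997). Hairpin differences were also lost for ASNS and SLC6A9 by DESeq2 and in each TPM setting (adjusted p 0.0846 to 0.279) and PSAT1 in each TPM setting (adjusted p 0.0574 to 0.16).

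**Figure D2:**
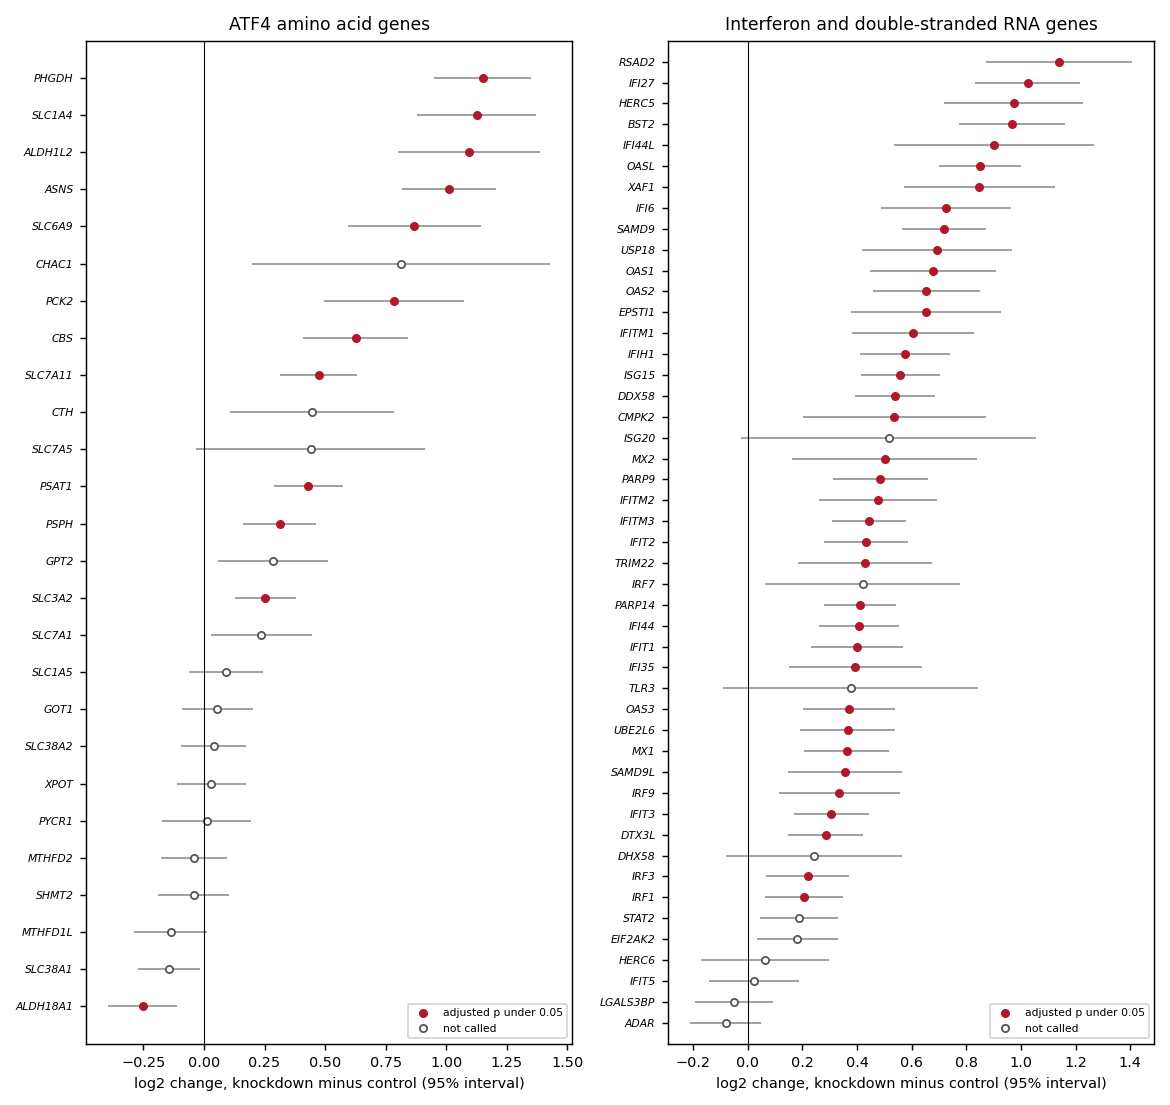
Log2 change of the tested members reported here of the ATF4 amino acid list (left) and the interferon list (right), mean of both hairpins minus control, with 95% intervals from the edgeR fit. Filled points passed an adjusted p of 0.05. PHGDH (1.15) and RSAD2 (1.14) head the panels.

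The message of ATF4 stood at 337 and 341 CPM in the controls, 331 and 333 with sh 64 and 356 and 357 with sh 65. Controls and sh 64 were level and sh 65 was a little higher, and no change passed (log2 change 0.021, SE 0.06, adjusted p = 0.846, 95% interval -0.10 to 0.15). ATF4 is regulated chiefly at translation, which RNA sequencing does not read. The list of integrated stress regulators holds genes that act in the integrated stress response and also stress-induced genes that need not regulate it. Of its 19 tested members, 7 rose and 2 fell (9.88% and 8.91% of all genes did), and 3 rose with each hairpin (4.23% of all genes). Those 3 were TRIB3, a pseudokinase that restrains ATF4, DDIT4, an inhibitor of mTORC1, and TXNIP, a thioredoxin-binding protein. DDIT4 stood at 179 and 207 CPM in the controls, 363 and 315 with sh 64 and 276 and 318 with sh 65. The groups were well apart (log2 change 0.71, SE 0.083, adjusted p = 2.04e-05), with no difference between hairpins past the threshold (interval -0.39 to 0.0028). TXNIP stood at 323 and 337 CPM in the controls, 603 and 628 with sh 64 and 429 and 528 with sh 65. It rose with each hairpin (log2 change 0.72, SE 0.077, adjusted p = 6.05e-06) and more with sh 64 (difference -0.36, adjusted p = 0.0184). TRIB3 stood at 50.2 and 46.9 CPM in the controls, 62.4 and 57.2 with sh 64 and 62.4 and 55.6 with sh 65. The gap to the controls was narrow (log2 change 0.30, SE 0.082, adjusted p = 0.0161). Integrated stress regulators called higher numbered 3 leaving out control replicate 1 or 2. Integrated stress regulators called lower numbered 0 leaving out control replicate 1. Counts of integrated stress regulators under the other alternatives were 2 to 7 higher (2 on log2(TPM + 1) with no filter). This call was lost by TRIB3 without control replicate 1 or 2 or sh 64 replicate 1 (adjusted p 0.061 to 0.264). The difference between hairpins was lost for TXNIP without sh 64 replicate 1 or 2 or sh 65 replicate 1 (adjusted p 0.0939 to 0.166). Not called in another setting were TRIB3 by DESeq2, with the hairpins as 1 group and in each TPM setting (adjusted p 0.056 to 0.181). Hairpins no longer differed past the threshold for TXNIP on log2(TPM + 1) with no filter (adjusted p = 0.156).

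DDIT3, which encodes the pro-apoptotic factor CHOP, stood at 21.2 and 22.4 CPM in the controls, 24.9 and 21.8 with sh 64 and 27.1 and 27.0 with sh 65. The groups overlapped and it did not pass (0.20, adjusted p = 0.185). SESN2, a stress-induced inhibitor of mTORC1, also overlapped (0.13, adjusted p = 0.588). ATF3, a stress-induced repressor, stood at 6.19 and 7.32 CPM in the controls, 14.0 and 12.2 with sh 64 and 11.6 and 8.35 with sh 65. It rose as a mean (log2 change 0.74, SE 0.16, adjusted p = 0.00362), with sh 64 past the threshold and sh 65 short of it (adjusted p = 0.00175 and 0.0638). The phosphatase subunit PPP1R15A, which reverses the translational block, fell (-0.40, adjusted p = 0.00221), as did ATF5 (-0.66, adjusted p = 0.0107). Of 12 tested secreted and signalling targets of ATF4, 3 rose (9.88% of all genes did), none with both hairpins (4.23% of all genes). Among them GDF15, a stress cytokine, stood at 2.99 and 2.58 CPM in the controls, 9.12 and 11.0 with sh 64 and 4.005 and 3.39 with sh 65. It was high with sh 64 only: sh 64 against control gave 1.86 (adjusted p = 1.88e-05), sh 65 gave 0.45 (adjusted p = 0.281), and the hairpins differed by -1.41 (adjusted p = 7.65e-04). Of 20 cytosolic aminoacyl-tRNA synthetases, 3 rose and 1 fell (9.88% and 8.91% of all genes did), with a median of 0.049. CARS (0.49, adjusted p = 1.16e-04) and AARS (0.46, adjusted p = 1.35e-04), which charge the tRNAs of cysteine and alanine, rose with each hairpin, and FARSA, a subunit of the phenylalanine enzyme, fell with each (-0.47, adjusted p = 8.75e-04). Secreted targets called higher numbered 1 leaving out control replicate 1 or 2. Secreted targets called lower numbered 1 leaving out sh 65 replicate 1. tRNA synthetases called lower numbered 2 leaving out sh 65 replicate 1. tRNA synthetases higher with both hairpins numbered 1 leaving out control replicate 1. tRNA synthetases lower with both hairpins numbered 0 leaving out control replicate 1 or 2 or sh 65 replicate 2. A call was lost for ATF3, PPP1R15A and ATF5 without control replicate 1 (adjusted p 0.0527 to 0.158). The test no longer passed for ATF3 and FARSA on log2(TPM + 1) with no filter (adjusted p 0.0551 to 0.0755) and ATF5 by DESeq2, on log2(TPM + 1) with no filter and with the hairpins as 1 group (adjusted p 0.0504 to 0.113).

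**Figure D3:**
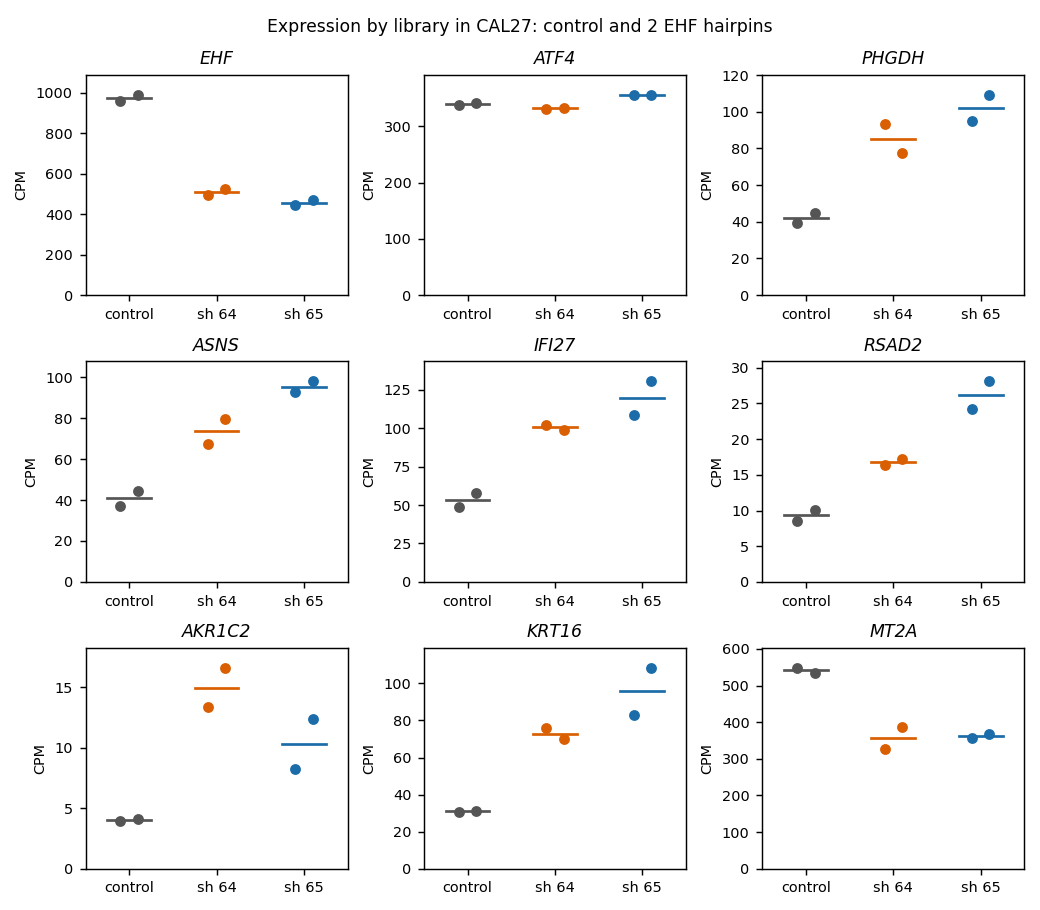
CPM of 9 genes in each library, with points for replicates and bars for the mean of 2 libraries, for control, sh 64 and sh 65. EHF and MT2A are lower in all knockdown libraries, ATF4 is level, and PHGDH, ASNS, IFI27, RSAD2, AKR1C2 and KRT16 are higher in all 4. For PHGDH, IFI27, RSAD2 and AKR1C2 such a gap was a condition of naming them.

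No chaperone of the endoplasmic reticulum (ER) passed as higher over the 6 libraries. Of 23 chaperones and folding enzymes, 0 passed as higher and 3 fell (9.88% and 8.91% of all genes did), and 2 fell with each hairpin (3.23% of all genes). DESeq2 also called 0 as higher, and 0 were higher at an unadjusted p under 0.05. HSPA5, the main chaperone of this compartment (BiP), stood at 249 and 246 CPM in the controls, 581 and 353 with sh 64 and 332 and 321 with sh 65. The controls agreed closely, 3 knockdown libraries lay moderately above them and sh 64 replicate 1 stood apart, and the change did not pass (0.66, adjusted p = 0.171, 95% interval -0.026 to 1.35). Leaving out either sh 64 library brought it past the threshold, at 0.46 without replicate 1 and 0.82 without replicate 2. ERO1L, an oxidase for disulphide bonds, stood at 227 and 225 CPM in the controls, 189.5 and 196 with sh 64 and 161 and 159 with sh 65. It fell with both hairpins (log2 change -0.37, SE 0.061, adjusted p = 4.10e-04), further with sh 65 (difference -0.27, adjusted p = 0.0373). DNAJC10, a disulphide reductase, fell as well (-0.37, adjusted p = 9.42e-04), and HYOU1 only just passed (-0.21, adjusted p = 0.0497). XBP1, the factor spliced by the sensor IRE1, rose with sh 64 (0.36, adjusted p = 0.00522) and was level with sh 65 (0.0032). The hairpins differed (adjusted p = 0.0142) and the mean did not pass. Of 21 sensors and degradation genes, 2 rose as a mean, a share of 9.52% and close to the 9.88% of all genes. They were HERPUD1 (0.34, adjusted p = 0.0393) and SEC24D (0.36, adjusted p = 0.0441), and no member rose with both hairpins. ER chaperones called higher numbered 1 leaving out sh 64 replicate 1 or 2 or sh 65 replicate 2. ER chaperones higher with both hairpins numbered 1 leaving out sh 64 replicate 1 or 2. ER chaperones lower with both hairpins numbered 0 leaving out control replicate 1 or 2 or sh 64 replicate 1 and 1 leaving out sh 64 replicate 2. Sensors and degradation genes called higher numbered 0 leaving out control replicate 1 or 2 or sh 64 replicate 2 and 1 leaving out sh 64 replicate 1 or sh 65 replicate 1 or 2. Sensors and degradation genes called lower numbered 1 leaving out sh 64 replicate 2. Leaving out a library ended the call of HYOU1 without control replicate 1 or 2, sh 64 replicate 1 or sh 65 replicate 2 (adjusted p 0.107 to 0.336), HERPUD1 without control replicate 1 or 2, sh 64 replicate 1 or 2 or sh 65 replicate 2 (adjusted p 0.0509 to 0.314) and SEC24D without control replicate 1 or 2, sh 64 replicate 2 or sh 65 replicate 1 (adjusted p 0.05002 to 0.232). HSPA5 passed without sh 64 replicate 1 or 2 (adjusted p 5.46e-06 to 4.30e-04). A called hairpin difference was lost for ERO1L without control replicate 1 or 2, sh 64 replicate 1 or 2 or sh 65 replicate 1 or 2 (adjusted p 0.0741 to 0.134) and XBP1 without sh 64 replicate 1 (adjusted p = 0.142). Also short of the threshold were HYOU1, HERPUD1 and SEC24D by DESeq2, with the hairpins as 1 group and in each TPM setting (adjusted p 0.0702 to 0.267). Hairpin differences were also lost for ERO1L by DESeq2 and in each TPM setting (adjusted p 0.0682 to 0.162) and XBP1 on log2(TPM + 1) with no filter (adjusted p = 0.0777).

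In the heat shock list, 5 of 24 tested members rose with the mean and with each hairpin (9.88% and 4.23% of all genes did), and 1 fell (8.91% of all genes). The small chaperone HSPB1 stood at 102 and 115 CPM in the controls, 218 and 218 with sh 64 and 180.0 and 212 with sh 65. HSPB1 rose 1.90-fold (log2 change 0.93, SE 0.078, adjusted p = 2.96e-07, interval of the hairpin difference -0.34 to 0.026). HSPB8, a partner of BAG3 in chaperone-assisted autophagy, stood at 10.6 and 10.3 CPM in the controls, 5.10 and 5.09 with sh 64 and 4.52 and 5.09 with sh 65. It moved the other way, 2.11-fold lower (log2 change -1.08, SE 0.15, adjusted p = 8.87e-05). BAG3 (0.35, adjusted p = 0.0117), DNAJB1 (0.32, adjusted p = 0.00175) and DNAJB4 (0.42, adjusted p = 0.00617) rose modestly. HSP90AA1 stood at 2788 and 2918 CPM in the controls, 4309.7 and 3190.4 with sh 64 and 3981 and 3850.1 with sh 65. It rose as a mean (log2 change 0.43, SE 0.10, adjusted p = 0.0161). The inducible HSPA1A stood at 134 and 152 CPM in the controls, 134 and 151 with sh 64 and 165 and 149 with sh 65. The groups overlapped fully (0.058, adjusted p = 0.649), and its near-identical copy HSPA1B did too (0.12, adjusted p = 0.336). How reads shared by such copies were counted is not given in the sources used here. The list's median was 0.059 and took either sign when single libraries were left out, from -0.015 to 0.078. Heat shock genes called higher numbered 2 leaving out control replicate 2 and 3 leaving out control replicate 1. Heat shock genes higher with both hairpins numbered 1 leaving out control replicate 1 or 2 or sh 64 replicate 1 and 3 leaving out sh 64 replicate 2 or sh 65 replicate 1 or 2. Counts of heat shock genes under the other alternatives were 1 to 6 higher (1 on log2(TPM + 1) with no filter) and 1 to 5 lower (5 on log2(TPM + 0.1)). The change no longer passed for BAG3 and DNAJB4 without control replicate 2 (adjusted p 0.136 to 0.219), DNAJB1 without control replicate 1 or 2 (adjusted p 0.0542 to 0.0587) and HSP90AA1 without control replicate 1 or 2 or sh 65 replicate 1 or 2 (adjusted p 0.0635 to 0.12). Other settings ended the call of DNAJB1 and DNAJB4 on log2(TPM + 1) with no filter (adjusted p 0.0502 to 0.0984), BAG3 in each TPM setting (adjusted p 0.111 to 0.23) and HSP90AA1 by DESeq2 and on log2(TPM + 1) with no filter (adjusted p 0.0527 to 0.112).

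Many genes of the NRF2 programme were higher, led by aldo-keto reductases. Of 36 tested targets and glutathione genes, 17 rose and 2 fell (9.88% and 8.91% of all genes did), with a median of 0.20. Of these, 10 and 1 moved so with each hairpin (4.23% and 3.23% of all genes). AKR1C2 stood at 3.98 and 4.09 CPM in the controls, 13.4 and 16.6 with sh 64 and 8.22 and 12.3 with sh 65. It rose as a mean (log2 change 1.59, SE 0.19, adjusted p = 1.23e-05), and a gap between the groups was a condition of naming it. AKR1C3, which reduces steroids and prostaglandins, stood at 1.44 and 1.97 CPM in the controls, 6.64 and 7.93 with sh 64 and 4.52 and 5.81 with sh 65. It rose 3.39-fold (log2 change 1.76, SE 0.24, adjusted p = 4.46e-05). Another reductase, AKR1B10, rose by 1.29 on the log2 scale, the glutathione peroxidase GPX2 by 1.17, the carbonyl reductase CBR3 by 0.97 and NFE2L2, which encodes NRF2, by 0.32. AKR1C1 did not pass (0.27, adjusted p = 0.357), and reads can be shared among these close AKR1C copies. NRF2 genes called higher numbered 10 leaving out control replicate 1 and 11 leaving out control replicate 2. NRF2 genes called lower numbered 1 leaving out control replicate 1 or 2, sh 64 replicate 1 or 2 or sh 65 replicate 2. NRF2 genes higher with both hairpins numbered 2 leaving out control replicate 2, 4 leaving out control replicate 1 and 5 leaving out sh 64 replicate 1. NRF2 genes lower with both hairpins numbered 0 leaving out control replicate 2. Counts of NRF2 genes under the other alternatives were 7 to 17 higher (7 on log2(TPM + 1) with no filter). Omitting a library ended the call of GPX2 without control replicate 2 (adjusted p = 0.0783) and NFE2L2 without control replicate 1 or 2 (adjusted p 0.0709 to 0.0741). Not called in another setting were GPX2 and NFE2L2 on log2(TPM + 1) with no filter (adjusted p 0.0512 to 0.0611).

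Of the widely used NRF2 markers NQO1, HMOX1, GCLC and TXNRD1, none rose with each hairpin. NQO1 stood at 169 and 171 CPM in the controls, 188 and 194 with sh 64 and 188 and 211 with sh 65. It rose slightly (log2 change 0.20, SE 0.067, adjusted p = 0.046) and neither hairpin passed alone. HMOX1, haem oxygenase, stood at 4.42 and 5.40 CPM in the controls, 4.71 and 6.23 with sh 64 and 5.85 and 2.78 with sh 65. It overlapped and did not pass (-0.053, adjusted p = 0.907, 95% interval -0.55 to 0.45). GCLC, the catalytic subunit of glutathione synthesis, did not pass either (0.074, adjusted p = 0.505). TXNRD1 stood at 428 and 453 CPM in the controls, 612 and 632 with sh 64 and 446 and 494 with sh 65. It was high with sh 64 (adjusted p = 1.76e-04) and near control with sh 65 (adjusted p = 0.445), a difference of -0.40 (adjusted p = 0.00284). SQSTM1, an autophagy receptor and NRF2 target, fell with each hairpin, from 559.9 and 571 CPM in the controls, 458 and 448 with sh 64 and 421 and 413 with sh 65 (log2 change -0.38, SE 0.058, adjusted p = 1.94e-04). The call was lost for NQO1 without control replicate 1 or 2, sh 64 replicate 1 or 2 or sh 65 replicate 2 (adjusted p 0.0632 to 0.311). The test no longer passed for NQO1 by DESeq2, with the hairpins as 1 group and in each TPM setting (adjusted p 0.0976 to 0.24). Hairpins no longer differed past the threshold for TXNRD1 on log2(TPM + 1) with no filter (adjusted p = 0.0611).

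The interferon and double-stranded RNA list held a larger share of higher calls than the other lists plotted. The list of 10 squamous identity markers, which was not plotted, held a larger one (80.0%). All 48 of its genes were tested, 37 rose (77.1%, against 9.88% of all genes) and 0 fell (8.91% of all genes did). With each hairpin 26 rose and 0 fell (4.23% and 3.23% of all genes did). By edgeR no member fell, none did by DESeq2, and 0 members fell at an unadjusted p under 0.05. The median was 0.43, with 0.36 for sh 64 and 0.54 for sh 65. Interferon genes called higher numbered 22 leaving out control replicate 1. Interferon genes higher with both hairpins numbered 12 leaving out control replicate 1 and 16 leaving out sh 64 replicate 1. Counts of interferon genes under the other alternatives were 20 to 37 higher (20 on log2(TPM + 1) with no filter).

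Promoters of 2 members are shown because both genes rose with each hairpin and both hold the interferon-stimulated response element, searched on both strands as 2 copies of GAAA with any 2 bases between them. This motif was chosen after the expression values were seen. Each line gives the 250 bases before the RefSeq start on GRCh38.p14, plus strand, 5′ to 3′, ISG15 at chr1:1013247-1013496 and IFI27 at chr14:94110486-94110735, with matches in capitals (overlapping matches merge into 1 run).
ISG15: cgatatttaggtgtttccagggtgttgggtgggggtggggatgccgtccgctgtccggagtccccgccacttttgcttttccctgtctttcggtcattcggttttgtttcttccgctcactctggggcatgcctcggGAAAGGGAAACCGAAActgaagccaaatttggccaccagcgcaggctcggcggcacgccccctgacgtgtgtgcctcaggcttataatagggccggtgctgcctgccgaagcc
IFI27: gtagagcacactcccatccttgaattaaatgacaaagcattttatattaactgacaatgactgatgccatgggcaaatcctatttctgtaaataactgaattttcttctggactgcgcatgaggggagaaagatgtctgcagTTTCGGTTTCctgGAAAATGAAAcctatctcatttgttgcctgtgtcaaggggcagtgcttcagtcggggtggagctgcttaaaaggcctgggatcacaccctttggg
The motif occurred in 19 of the 37 interferon promoters available and in 14 of the 22 for members called alike, against 2.36% of all 10590. It was in 30 (6.48%) of the 463 promoters of genes higher with both hairpins and in 1.74% of the 344 lower with both. Those 30 include the 14 interferon promoters just counted, so the 6.48% is not a separate observation.

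IFI27, a mitochondrial protein that is among the most inducible interferon genes, stood at 48.5 and 58.1 CPM in the controls, 102 and 98.8 with sh 64 and 109 and 130.4 with sh 65. IFI27 rose 2.03-fold (log2 change 1.02, SE 0.091, adjusted p = 7.97e-07), and the hairpins did not differ past the threshold (interval 0.036 to 0.46). RSAD2, or viperin, which makes a chain-terminating nucleotide, stood at 8.51 and 10.1 CPM in the controls, 16.4 and 17.3 with sh 64 and 24.2 and 28.1 with sh 65. It rose 2.20-fold (log2 change 1.14, SE 0.13, adjusted p = 6.68e-06), more with sh 65 (difference 0.64, adjusted p = 0.0091). ISG15, a ubiquitin-like modifier, stood at 88.7 and 86.1 CPM in the controls, 117 and 112 with sh 64 and 147 and 142 with sh 65. It too rose with each hairpin (log2 change 0.56, SE 0.068, adjusted p = 1.70e-05) and more with sh 65 (difference 0.33, adjusted p = 0.0157). The virus tether BST2 rose by 0.97, the ISG15 ligase HERC5 by 0.97, the synthetase OAS1 by 0.68 and MX1 by 0.36 on the log2 scale. Sensors of double-stranded RNA rose as well, IFIH1 (MDA5) by 0.58 and DDX58 (RIG-I) by 0.54, while TLR3 (0.38, adjusted p = 0.261) and EIF2AK2 (0.18, adjusted p = 0.0803), the RNA-sensing kinase PKR, did not pass. IRF9, the DNA-binding part of the complex that carries the interferon signal, rose (0.33, adjusted p = 0.0338), and its partner STAT2 did not pass (0.19, adjusted p = 0.0657). CXCL10, an interferon-induced chemokine, was high with sh 64 only, 1.40 against 0.37 with sh 65 (difference -1.03, adjusted p = 0.0104). This call was lost by MX1 without control replicate 1 (adjusted p = 0.106) and IRF9 without control replicate 1 or 2 or sh 64 replicate 1 (adjusted p 0.109 to 0.28). TLR3 passed without sh 65 replicate 1 (adjusted p = 0.0105). EIF2AK2 passed without sh 64 replicate 2 (adjusted p = 0.0345). STAT2 passed without sh 64 replicate 1 or sh 65 replicate 1 (adjusted p 0.029 to 0.0487). The hairpin difference was no longer called for RSAD2 and CXCL10 without sh 64 replicate 1 (adjusted p 0.124 to 0.25) and ISG15 without sh 64 replicate 1 or 2 (adjusted p 0.0583 to 0.0839). Also short of the threshold were MX1 on log2(TPM + 1) with no filter (adjusted p = 0.0537) and IRF9 by DESeq2, with the hairpins as 1 group and in each TPM setting (adjusted p 0.0668 to 0.158). Hairpin differences were also lost for RSAD2 and ISG15 on log2(TPM + 1) with no filter (adjusted p 0.105 to 0.118) and CXCL10 by DESeq2 and on log2(TPM + 1) with no filter (adjusted p 0.0639 to 0.107).

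Many NF-kB targets and cytokines went down, and many differed between hairpins. As a mean 16 of 30 fell and 3 rose (53.3% and 10.0%, against 8.91% and 9.88% of all genes). Only 4 fell with each hairpin (3.23% of all genes) and none rose with each. The median was 0.024 with sh 64 and -0.89 with sh 65, and 17 members differed between hairpins (5.34% of all genes did). The 4 that fell with each hairpin were CSF2, CCL2, ICAM1 and CSF1. CSF2, the growth factor GM-CSF, stood at 14.0 and 11.5 CPM in the controls, 4.17 and 5.38 with sh 64 and 1.95 and 0.848 with sh 65. Both hairpins lowered it and sh 65 lowered it further (log2 change -2.28, SE 0.20, adjusted p = 5.73e-07, difference -1.68, adjusted p = 0.00591). CCL2, a monocyte chemokine, stood at 12.5 and 17.1 CPM in the controls, 7.88 and 9.06 with sh 64 and 3.59 and 7.39 with sh 65. It fell as a mean (log2 change -1.18, SE 0.20, adjusted p = 0.00158). ICAM1 fell by 0.73 on the log2 scale. Other members split: IL1B stood at 154 and 161 CPM in the controls, 239.5 and 265 with sh 64 and 67.5 and 60.7 with sh 65. It rose with sh 64 (0.67, adjusted p = 2.00e-05) and fell with sh 65 (-1.30, adjusted p = 1.80e-08). IL8 and IL6 split the same way (0.49 and -1.33, 0.52 and -1.16), and TNFAIP3 was lower with sh 65 only (-0.99, difference -1.15, adjusted p = 3.54e-08). NF-kB targets called higher numbered 0 leaving out control replicate 1 and 1 leaving out control replicate 2 or sh 64 replicate 2. NF-kB targets called lower numbered 10 leaving out control replicate 2. NF-kB targets lower with both hairpins numbered 1 leaving out control replicate 2 and 2 leaving out control replicate 1 or sh 64 replicate 1. Counts of NF-kB targets under the other alternatives were 0 to 3 higher (0 on log2(TPM + 1) with no filter and with the hairpins as 1 group) and 5 to 17 lower (5 with the hairpins as 1 group). The difference between hairpins was lost for CSF2 without sh 64 replicate 2 (adjusted p = 0.0547). Other settings ended the call of CCL2 in each TPM setting (adjusted p 0.0753 to 0.115). Hairpins no longer differed past the threshold for CSF2 in each TPM setting (adjusted p 0.0802 to 0.16).

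Many keratins and alarmins of stressed epithelium rose. Of 19 tested, 9 rose and 1 fell (9.88% and 8.91% of all genes did), with a median of 0.61. Of these, 7 and 1 moved so with each hairpin (4.23% and 3.23% of all genes). KRT16, a keratin of wounded and hyperproliferative epidermis, stood at 30.7 and 31.4 CPM in the controls, 75.9 and 69.8 with sh 64 and 83.2 and 108 with sh 65. It rose 2.68-fold (log2 change 1.42, SE 0.10, adjusted p = 1.29e-07), slightly more with sh 65 (difference 0.38, adjusted p = 0.0475). Its partner KRT6A rose by 0.91. KRT17 stood at 955 and 977 CPM in the controls, 1558 and 1391 with sh 64 and 1137 and 1265 with sh 65. It rose less (log2 change 0.46, SE 0.068, adjusted p = 1.19e-04), and more with sh 64 (difference -0.30, adjusted p = 0.0297). S100A8, which forms calprotectin with S100A9, stood at 27.2 and 35.4 CPM in the controls, 159 and 161 with sh 64 and 56.2 and 78.1 with sh 65. It rose 3.24-fold (log2 change 1.70, SE 0.15, adjusted p = 1.04e-04), with sh 64 above sh 65 by a log2 difference of -1.26 (adjusted p = 0.00231). S100A9 did likewise (1.08, adjusted p = 3.71e-05). The elastase inhibitor PI3 rose by 1.54 and IL36RN, an antagonist of interleukin 36, by 1.65. LCN2, a siderophore-binding protein of epithelial defence, fell (-0.68, adjusted p = 5.76e-05), as did RNASE7, an antimicrobial ribonuclease (-1.92, adjusted p = 2.45e-07, 19.6 and 16.6 CPM in the controls, 6.18 and 7.78 with sh 64 and 3.80 and 2.66 with sh 65). Keratins and alarmins called lower numbered 2 leaving out sh 65 replicate 1. Keratins and alarmins higher with both hairpins numbered 4 leaving out control replicate 1. Keratins and alarmins lower with both hairpins numbered 0 leaving out control replicate 1 or 2 or sh 64 replicate 1. Counts of keratins and alarmins under the other alternatives were 5 to 10 higher (5 with the hairpins as 1 group). A called hairpin difference was lost for KRT16 without control replicate 1 or 2, sh 64 replicate 1 or 2 or sh 65 replicate 2 (adjusted p 0.0638 to 0.337) and KRT17 without control replicate 1 or 2, sh 64 replicate 1 or sh 65 replicate 1 (adjusted p 0.0621 to 0.261). Not called in another setting were S100A8 and S100A9 with the hairpins as 1 group (adjusted p 0.168 to 0.247). Hairpin differences were also lost for KRT16 by DESeq2 and in each TPM setting (adjusted p 0.0954 to 0.238) and KRT17 on log2(TPM + 1) with no filter (adjusted p = 0.105).

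Differentiation genes rose beside them. In the epidermal list 30 of 49 genes were expressed enough to test. Of these 20 rose and 0 fell (9.88% and 8.91% of all genes did), and 8 rose with each hairpin (4.23% of all genes). No member fell by edgeR, none by DESeq2, and 0 fell at an unadjusted p under 0.05. SPRR1B, a cornified envelope precursor, stood at 2.54 and 2.47 CPM in the controls, 16.5 and 20.1 with sh 64 and 13.6 and 13.1 with sh 65. It rose 6.19-fold (log2 change 2.63, SE 0.17, adjusted p = 4.02e-08), and its close copy SPRR1A rose 4.95-fold, more with sh 64 (difference -1.37, adjusted p = 0.00179). ZNF750, a differentiation factor, rose by 1.75 and FLG, or filaggrin, by 2.00. KRT4 and KRT13, keratins of the oral mucosa, rose with sh 65 and did not pass with sh 64, with KRT4 at 4.36 against 1.02 with sh 64 (difference 3.34, adjusted p = 1.18e-06). The 10 squamous identity markers summed to 9629 to 11930 CPM in the knockdown libraries, above the 7240 to 7535 CPM of the controls. Of the 10, 8 rose with each hairpin (4.23% of all genes did). In bulk RNA more cells of a type and more RNA per cell cannot be told apart. KRT14, the basal keratin, stood at 693 and 769.9 CPM in the controls, 1786 and 1566 with sh 64 and 1569.5 and 1926 with sh 65. It rose 2.34-fold (log2 change 1.23, SE 0.09, adjusted p = 9.58e-07), and the desmosomal PKP1 rose by 1.27 with nearly the same value for each hairpin (1.25 and 1.29, interval of the difference -0.13 to 0.21). Epidermal genes called higher numbered 12 leaving out control replicate 1 and 13 leaving out control replicate 2. Epidermal genes called lower numbered 1 leaving out sh 65 replicate 1. Epidermal genes higher with both hairpins numbered 5 leaving out control replicate 2. Counts of epidermal genes under the other alternatives were 10 to 23 higher (10 with the hairpins as 1 group).

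Within the basal keratinocyte list 7 rose and 8 fell of 25 (9.88% and 8.91% of all genes did), 5 and 5 with each hairpin (4.23% and 3.23%). The members that rose included KRT14, KRT5 (0.44, adjusted p = 1.52e-04), TP63 (0.41, adjusted p = 2.83e-04), the master factor of the basal layer, NGFR (1.04, adjusted p = 0.00113) and SOX2, a stem cell factor, at 3.87 and 4.14 CPM in the controls, 11.9 and 11.2 with sh 64 and 12.1 and 15.0 with sh 65 (log2 change 1.63, SE 0.17, adjusted p = 2.29e-06). The laminin gene LAMA3 stood at 246 and 226 CPM in the controls, 204 and 193 with sh 64 and 194 and 174 with sh 65 and fell (-0.30, adjusted p = 0.00466). COL7A1 (-0.38, adjusted p = 0.00311), the collagen of anchoring fibrils, and ITGA3 (-0.49, adjusted p = 3.54e-04), a laminin-binding integrin, fell with each hairpin as LAMA3 did, and IGFBP3, a binding protein of insulin-like growth factors, fell more with sh 64 (-0.59, adjusted p = 3.50e-06, difference 0.58, adjusted p = 7.95e-05). Basal genes called lower numbered 4 leaving out control replicate 1. Basal genes higher with both hairpins numbered 2 leaving out control replicate 1 and 3 leaving out control replicate 2. Basal genes lower with both hairpins numbered 1 leaving out control replicate 1 or 2, 2 leaving out sh 64 replicate 2 and 3 leaving out sh 64 replicate 1. Counts of basal genes under the other alternatives were 4 to 8 lower (4 on log2(TPM + 1) with no filter and with the hairpins as 1 group). A call was lost for LAMA3 and COL7A1 without control replicate 1 (adjusted p 0.0824 to 0.159). The test no longer passed for LAMA3 and COL7A1 on log2(TPM + 1) with no filter (adjusted p 0.0655 to 0.0745) and IGFBP3 with the hairpins as 1 group (adjusted p = 0.196).

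**Figure D4:**
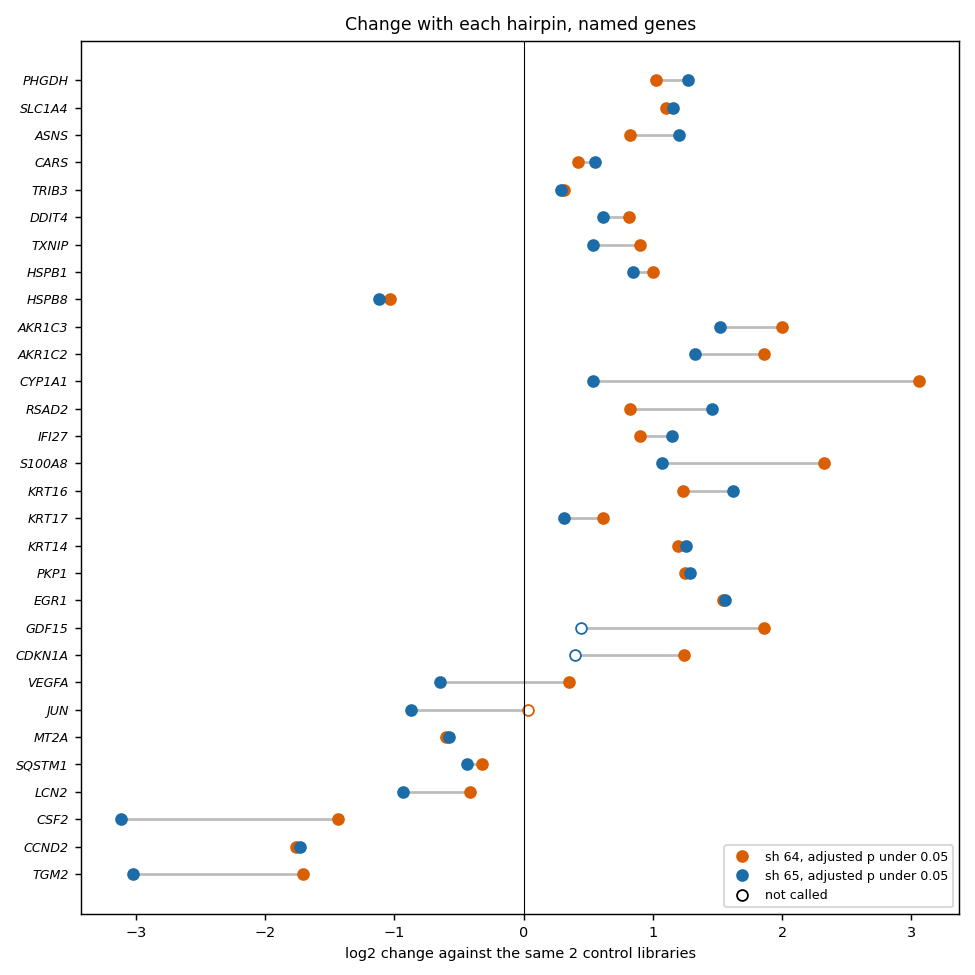
Log2 change of 30 genes with sh 64 (orange) and sh 65 (blue), each against the same 2 control libraries, with filled points past an adjusted p of 0.05. PHGDH, SLC1A4, TRIB3, KRT14, PKP1, EGR1 and CCND2 lie close together for the hairpins, while GDF15, CDKN1A, JUN and VEGFA do not.

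Immediate early genes and the ERK feedback genes moved in mixed ways. Of 24 tested immediate early and AP-1 genes, 8 rose and 3 fell (9.88% and 8.91% of all genes did), 3 and 1 with each hairpin (4.23% and 3.23%). EGR1 stood at 2.101 and 2.42 CPM in the controls, 7.19 and 6.09 with sh 64 and 7.39 and 6.17 with sh 65. Its low control level rose 2.92-fold with little difference between hairpins (log2 change 1.55, SE 0.21, adjusted p = 5.10e-05, interval -0.43 to 0.47). FOS rose as a mean (1.06, adjusted p = 0.00865). It passed with sh 65 (1.37, adjusted p = 0.00343) and not with sh 64 (0.74, adjusted p = 0.12). KLF4, a differentiation factor, rose (0.82, adjusted p = 4.45e-05) and CYR61, a matricellular target of YAP, fell (-0.60, adjusted p = 7.26e-05). JUN stood at 29.0 and 24.2 CPM in the controls, 29.7 and 23.2 with sh 64 and 16.1 and 12.5 with sh 65. It was lower with sh 65 only (-0.87 against 0.033, difference -0.90, adjusted p = 0.00243), and it passed as a mean (-0.42, adjusted p = 0.0299). Among 20 phosphatases and feedback genes 1 rose and 4 fell (9.88% and 8.91% of all genes did). DUSP4 (-0.86, adjusted p = 1.46e-05) and DUSP2 (-1.02, adjusted p = 0.00224) fell with each hairpin. DUSP1 overlapped (-0.11, adjusted p = 0.722). Immediate early genes called higher numbered 3 leaving out control replicate 1 and 5 leaving out control replicate 2. Immediate early genes called lower numbered 1 leaving out control replicate 1. Immediate early genes higher with both hairpins numbered 5 leaving out sh 65 replicate 2. Immediate early genes lower with both hairpins numbered 0 leaving out control replicate 1 and 2 leaving out sh 64 replicate 2. Counts of immediate early genes under the other alternatives were 3 to 8 higher (3 on log2(TPM + 1) with no filter). Feedback genes called higher numbered 0 leaving out control replicate 1 or 2 and 2 leaving out sh 65 replicate 2. Feedback genes called lower numbered 1 leaving out control replicate 1. Feedback genes lower with both hairpins numbered 0 leaving out control replicate 1 or sh 64 replicate 1 and 1 leaving out sh 64 replicate 2. Counts of feedback genes under the other alternatives were 1 to 4 lower (1 with the hairpins as 1 group). Leaving out a library ended the call of FOS without control replicate 1 or 2 (adjusted p 0.0714 to 0.0934), JUN without control replicate 1 or sh 64 replicate 2 (adjusted p 0.0774 to 0.3) and DUSP2 without control replicate 1 (adjusted p = 0.0511). The hairpin difference was no longer called for JUN without sh 64 replicate 1 (adjusted p = 0.0946). Also short of the threshold were FOS by DESeq2 (adjusted p = 0.0777), JUN by DESeq2, on log2(TPM + 1) with no filter and with the hairpins as 1 group (adjusted p 0.0751 to 0.584) and DUSP4 with the hairpins as 1 group (adjusted p = 0.134). Hairpins no longer differed past the threshold for JUN on log2(TPM + 1) with no filter (adjusted p = 0.114).

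p53 targets showed no common direction. Of 28 tested, 6 rose and 4 fell (9.88% and 8.91% of all genes did), 2 and 2 with each hairpin (4.23% and 3.23% of all genes). CDKN1A, the cell cycle inhibitor p21, stood at 16.3 and 15.9 CPM in the controls, 35.0 and 41.5 with sh 64 and 18.7 and 23.9 with sh 65. All 4 knockdown values lay above the controls, but only sh 64 passed (adjusted p = 7.79e-06, sh 65 0.0679), and the hairpins differed by -0.84 (adjusted p = 8.24e-04). MDM2, the ligase that p53 induces, did not pass (-0.12, adjusted p = 0.286, 95% interval -0.27 to 0.035). DDB2, a damage sensor (0.46, adjusted p = 0.00559), rose with each hairpin. PLK2 (-0.60, adjusted p = 1.91e-06) and the nuclease AEN (-0.76, adjusted p = 6.63e-06) fell with each. p53 targets called higher numbered 1 leaving out control replicate 2 and 3 leaving out control replicate 1. p53 targets called lower numbered 2 leaving out control replicate 1. p53 targets higher with both hairpins numbered 0 leaving out control replicate 1 or 2, 1 leaving out sh 64 replicate 1 or sh 65 replicate 2 and 7 leaving out sh 65 replicate 1. Counts of p53 targets under the other alternatives were 1 to 9 higher (1 on log2(TPM + 1) with no filter). The change no longer passed for DDB2 without control replicate 1 or 2 (adjusted p 0.0519 to 0.0815). Other settings ended the call of DDB2 on log2(TPM + 1) with no filter (adjusted p = 0.095). Hairpin differences were also lost for CDKN1A on log2(TPM + 1) with no filter (adjusted p = 0.0631).

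Hypoxia genes showed no common direction. The list had 7 higher and 2 lower of 28 (9.88% and 8.91% of all genes), 1 and 1 with each hairpin (4.23% and 3.23%). Its median was 0.34 for sh 64 and -0.02 for sh 65. VEGFA stood at 94.3 and 94.0 CPM in the controls, 127 and 113 with sh 64 and 62.7 and 57.6 with sh 65. It rose with sh 64 (0.35, adjusted p = 0.00732), fell with sh 65 (-0.64, adjusted p = 6.02e-05) and did not pass as a mean. CA9, a widely used marker of hypoxia in carcinomas, overlapped (-0.27, adjusted p = 0.362). SLC2A1, the glucose transporter GLUT1, rose with both hairpins (0.52, adjusted p = 2.64e-05, 193 and 184 CPM in the controls, 273 and 285 with sh 64 and 252 and 275 with sh 65). Hypoxia genes called higher numbered 1 leaving out control replicate 1 and 2 leaving out control replicate 2. Hypoxia genes called lower numbered 1 leaving out control replicate 1 or 2, sh 64 replicate 2 or sh 65 replicate 2. Hypoxia genes higher with both hairpins numbered 3 leaving out sh 65 replicate 1. Hypoxia genes lower with both hairpins numbered 0 leaving out control replicate 1 or 2 or sh 64 replicate 1 or 2. Counts of hypoxia genes under the other alternatives were 1 to 7 higher (1 with the hairpins as 1 group).

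Several metallothioneins, which bind zinc and copper and rise with metal or oxidative stress, went down. In the list of metallothioneins and zinc transport genes, of 9 tested genes of 14, 5 fell and 0 rose (8.91% and 9.88% of all genes did). Of those that fell, 2 did so with each hairpin (3.23% of all genes). No member rose by edgeR, by DESeq2 or at an unadjusted p under 0.05 (0 genes). MT2A stood at 547 and 535 CPM in the controls, 328 and 388 with sh 64 and 356 and 369 with sh 65. Every knockdown library was below the controls (log2 change -0.59, SE 0.068, adjusted p = 8.69e-06, interval of the hairpin difference -0.15 to 0.19). MT1E fell as well (-0.40, adjusted p = 4.17e-04), while MT1X overlapped (-0.074, adjusted p = 0.851), and reads may be shared among these short paralogs. In the autophagy and lysosome list 6 rose and 8 fell of 37 (9.88% and 8.91% of all genes did), 1 and 6 with each hairpin (4.23% and 3.23%). GABARAPL1, which coats autophagosomes, rose (0.57, adjusted p = 8.27e-05). LAPTM5, a lysosomal protein best known from blood cells, stood at 12.3 and 12.2 CPM in the controls, 3.55 and 2.97 with sh 64 and 2.77 and 2.54 with sh 65. It fell 4.09-fold (log2 change -2.03, SE 0.17, adjusted p = 2.45e-07), and the cathepsin CTSS fell too (-1.23, adjusted p = 2.86e-05). The summed leukocyte markers were 47.4 to 47.6 CPM in the controls and 40.7 to 42.4 CPM with knockdown, and their part in these falls was not tested. Metallothionein and zinc genes called lower numbered 2 leaving out control replicate 2 and 3 leaving out control replicate 1 or sh 64 replicate 1. Metallothionein and zinc genes lower with both hairpins numbered 1 leaving out control replicate 2. Counts of metallothionein and zinc genes under the other alternatives were 2 to 6 lower (2 by DESeq2). Autophagy and lysosome genes called higher numbered 2 leaving out control replicate 1. Autophagy and lysosome genes higher with both hairpins numbered 2 leaving out sh 64 replicate 2 or sh 65 replicate 2. Autophagy and lysosome genes lower with both hairpins numbered 2 leaving out control replicate 2 and 3 leaving out control replicate 1 or sh 64 replicate 1. Counts of autophagy and lysosome genes under the other alternatives were 1 to 6 higher (1 on log2(TPM + 1) with no filter) and 4 to 10 lower (4 on log2(TPM + 1) with no filter).

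Many genes of DNA replication fell by small amounts, and the number called depended on the controls. The S phase list had 45 tested members, with a median log2 change of -0.21. Lower calls for the mean numbered 22, a share of 48.9% against 8.91% over all genes. Higher calls numbered 0 (9.88% over all genes). Both hairpins lowered 10 members past the threshold (3.23% over all genes). CCNE1 (-0.54, adjusted p = 0.00673) and CCNE2 (-0.50, adjusted p = 0.0014), the cyclins of S phase entry, fell with each hairpin. MCM2, a subunit of the replicative helicase, stood at 296 and 282 CPM in the controls, 219 and 235 with sh 64 and 243 and 224 with sh 65 (log2 change -0.33, SE 0.064, adjusted p = 0.00159). By edgeR no S phase gene rose, DESeq2 called 0 as higher, and 0 were higher at an unadjusted p under 0.05. Of 52 mitosis genes 8 fell and 1 rose (15.4% and 1.92%, against 8.91% and 9.88% of all genes), with a median of -0.038. S phase genes called lower numbered 4 leaving out control replicate 1 and 5 leaving out control replicate 2. S phase genes lower with both hairpins numbered 0 leaving out control replicate 2, 1 leaving out control replicate 1, 3 leaving out sh 64 replicate 1 or sh 65 replicate 2 and 6 leaving out sh 64 replicate 2. Counts of S phase genes under the other alternatives were 8 to 25 lower (8 on log2(TPM + 1) with no filter). Mitosis genes called higher numbered 0 leaving out control replicate 2. Mitosis genes called lower numbered 2 leaving out control replicate 1 or 2 and 4 leaving out sh 64 replicate 1. Counts of mitosis genes under the other alternatives were 1 to 8 lower (1 with the hairpins as 1 group). Omitting a library ended the call of CCNE1 and MCM2 without control replicate 1 (adjusted p 0.0674 to 0.119). Not called in another setting were CCNE1 and CCNE2 on log2(TPM + 1) with no filter (adjusted p 0.0551 to 0.0568).

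In the ribosome biogenesis list 23 of 34 members fell (67.6%, against 8.91% of all genes), 10 of them with each hairpin (3.23% of all genes). By edgeR 0 rose (9.88% of all genes did), and 0 did by DESeq2 or at an unadjusted p under 0.05. NOP56, a core protein of snoRNA particles, stood at 455 and 446 CPM in the controls, 341 and 321 with sh 64 and 344 and 331 with sh 65. The groups were apart by more than their spread (log2 change -0.43, SE 0.06, adjusted p = 7.48e-05). RRP9 (-0.52, adjusted p = 3.47e-04) and NOL6 (-0.45, adjusted p = 2.72e-04), which act in processing of the ribosomal RNA precursor, fell with each hairpin. MYC, a known driver of these genes, did not pass as a mean (-0.11, adjusted p = 0.355) and differed between hairpins (0.15 and -0.37, adjusted p = 0.00135). Of 62 nuclear genes of the respiratory chain 19 rose by small amounts (9.88% of all genes rose), and the list's median was 0.16. With each hairpin 4 of them rose (4.23% of all genes). ATP5I (0.43, adjusted p = 9.09e-04) and ATP5G2 (0.30, adjusted p = 0.00551), of the ATP synthase, rose with each. Ribosome biogenesis genes called lower numbered 7 leaving out control replicate 2 and 12 leaving out control replicate 1. Ribosome biogenesis genes lower with both hairpins numbered 2 leaving out control replicate 1 and 4 leaving out control replicate 2 or sh 64 replicate 1. Counts of ribosome biogenesis genes under the other alternatives were 10 to 24 lower (10 on log2(TPM + 1) with no filter). Respiratory chain genes called higher numbered 1 leaving out control replicate 1 or 2 and 30 leaving out sh 65 replicate 1. Respiratory chain genes called lower numbered 1 leaving out sh 65 replicate 2. Respiratory chain genes higher with both hairpins numbered 0 leaving out control replicate 1 or sh 64 replicate 1, 1 leaving out control replicate 2, 2 leaving out sh 65 replicate 2 and 17 leaving out sh 65 replicate 1. Counts of respiratory chain genes under the other alternatives were 1 to 24 higher (1 on log2(TPM + 1) with no filter). The call was lost for ATP5G2 without control replicate 1 or 2 (adjusted p 0.0584 to 0.138). The test no longer passed for ATP5G2 on log2(TPM + 1) with no filter (adjusted p = 0.0601). Hairpins no longer differed past the threshold for MYC on log2(TPM + 1) with no filter (adjusted p = 0.107).

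Most tested mesenchymal and matrix genes fell. Of 32 tested members 17 fell and 2 rose (8.91% and 9.88% of all genes did), with a median of -0.34. Of these, 8 and 1 moved so with each hairpin (3.23% and 4.23% of all genes). CDH11, a cadherin of mesenchymal cells, stood at 6.63 and 6.51 CPM in the controls, 1.08 and 0.566 with sh 64 and 1.33 and 0.848 with sh 65. It fell 6.53-fold (log2 change -2.71, SE 0.25, adjusted p = 8.10e-07). TGM2, a transglutaminase that crosslinks matrix proteins, stood at 21.1 and 19.1 CPM in the controls, 6.57 and 5.38 with sh 64 and 2.36 and 2.54 with sh 65. Both hairpins lowered it, sh 65 further (log2 change -2.37, SE 0.15, adjusted p = 1.78e-08, difference -1.31, adjusted p = 0.00286). VIM (-1.12, adjusted p = 0.00235) and TGFBI (-0.58, adjusted p = 3.11e-05) fell with each hairpin, and SNAI2 fell with sh 65 (-0.40, adjusted p = 0.00444) and did not pass with sh 64. The collagenase MMP13 went the other way, at 24.5 and 30.0 CPM in the controls, 81.6 and 90.4 with sh 64 and 112 and 181 with sh 65. It rose 4.03-fold (log2 change 2.01, SE 0.27, adjusted p = 0.0145). The summed fibroblast markers were 8.47 to 9.28 CPM in controls and 9.03 to 16.8 CPM with knockdown. Only 3 of the 10 were expressed enough to test, and their part in the changes of this list was not tested. Mesenchymal genes called higher numbered 0 leaving out control replicate 1. Mesenchymal genes called lower numbered 10 leaving out control replicate 1. Mesenchymal genes higher with both hairpins numbered 0 leaving out control replicate 1 or 2 or sh 64 replicate 1 or 2. Mesenchymal genes lower with both hairpins numbered 5 leaving out control replicate 1. Counts of mesenchymal genes under the other alternatives were 8 to 19 lower (8 on log2(TPM + 1) with no filter). This call was lost by MMP13 without control replicate 1 or 2 (adjusted p 0.0934 to 0.108). The difference between hairpins was lost for TGM2 without sh 64 replicate 1 (adjusted p = 0.0864). Also short of the threshold were VIM on log2(TPM + 1) with no filter (adjusted p = 0.0752) and MMP13 with the hairpins as 1 group (adjusted p = 0.0584). Hairpin differences were also lost for TGM2 on log2(TPM + 1) with no filter (adjusted p = 0.0726).

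Of genes called alike by both hairpins, at a mean log2 CPM of 2 or more and with no overlap between groups, the largest rise was that of KRT19, a keratin of simple epithelia, at 1.11 and 0.657 CPM in the controls, 5.72 and 3.82 with sh 64 and 6.16 and 8.60 with sh 65 (log2 change 2.88, SE 0.31, adjusted p = 3.83e-06). It was followed by SPRR1B and SPRR1A, HCAR2, a receptor of niacin and ketone bodies (2.15, adjusted p = 2.45e-07), MMP13, MXRA5 (1.86, adjusted p = 9.97e-04), the troponin TNNT1 (1.85, adjusted p = 1.09e-05), CYP1A1, LRRC7 (1.76, adjusted p = 2.03e-05) and AKR1C3. CYP1A1, a target of the aryl hydrocarbon receptor, stood at 6.63 and 7.07 CPM in the controls, 55.0 and 61.0 with sh 64 and 9.55 and 10.5 with sh 65. It was called with both hairpins but was far larger with sh 64 (3.06 against 0.54, difference -2.53, adjusted p = 7.98e-10). Beside TGM2, CSF2, LAPTM5 and RNASE7 the largest falls were those of SAMD4A (-1.77, adjusted p = 1.08e-05), the oxidase AOX1 (-1.75, adjusted p = 8.21e-07), CCND2, PDZK1IP1 (-1.72, adjusted p = 3.54e-06), the Notch ligand DNER (-1.59, adjusted p = 1.75e-06) and the protease inhibitor SERPINA1 (-1.58, adjusted p = 6.06e-05). CCND2, a D-type cyclin, stood at 65.1 and 56.9 CPM in the controls, 16.8 and 19.4 with sh 64 and 21.5 and 14.9 with sh 65. The hairpins gave nearly the same fall (-1.76 and -1.73, interval of the difference -0.31 to 0.38). Other settings ended the call of MXRA5 on log2(TPM + 1) with no filter (adjusted p = 0.0731) and CYP1A1 with the hairpins as 1 group (2.30, adjusted p = 0.322).

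Of 20 tested members of the ETS family 3 rose and 5 fell, EHF included, against 9.88% and 8.91% of all genes. With each hairpin 2 rose (4.23% of all genes did). ELF3, another epithelial ETS factor, stood at 36.3 and 40.3 CPM in the controls, 60.2 and 71.5 with sh 64 and 103 and 127 with sh 65. It rose 2.25-fold (log2 change 1.17, SE 0.10, adjusted p = 1.35e-06), more with sh 65 (difference 0.81, adjusted p = 3.24e-04). Per gene length, in the authors' TPM, EHF went from 332 to 158 and ELF3 from 22.6 to 51.3, so EHF remained the higher of the pair. ETV7, an interferon-inducible repressor, stood at 1.11 and 2.07 CPM in the controls, 5.56 and 3.11 with sh 64 and 6.06 and 6.42 with sh 65 (log2 change 1.62, SE 0.28, adjusted p = 5.10e-04), and ETS1 fell (-0.47, adjusted p = 0.0235). The ETS core AGGAAG, searched on both strands of the 250 bases before the start, was in 28.5% of promoters of genes higher with both hairpins, in 26.7% of those lower with both and in 27.7% of all. The longer CCGGAAG was in 7.13%, 11.3% and 15.9%. ETS factors called lower numbered 1 leaving out control replicate 1 or sh 64 replicate 1, 2 leaving out control replicate 2 and 3 leaving out sh 64 replicate 2 or sh 65 replicate 2. ETS factors higher with both hairpins numbered 1 leaving out sh 64 replicate 1. Counts of ETS factors under the other alternatives were 1 to 5 lower (1 by DESeq2, on log2(TPM + 1) with no filter and with the hairpins as 1 group). A call was lost for ETS1 without control replicate 1 or sh 64 replicate 1 or 2 (adjusted p 0.0588 to 0.23). Not called in another setting were ELF3 with the hairpins as 1 group (adjusted p = 0.122) and ETS1 by DESeq2, with the hairpins as 1 group and in each TPM setting (adjusted p 0.0663 to 0.249). Hairpins no longer differed past the threshold for ELF3 on log2(TPM + 1) with no filter (adjusted p = 0.0635).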

How the data were processed

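The authors deposited a table of whole-number read counts per gene for the 6 CAL27 libraries and a table of TPM (transcripts per 1000000). The submitters' processing notes name TopHat2 2.1.1, Bowtie 1.1.1, featureCounts 1.5.3, DESeq2 1.12.4 and the build hg19. The step each tool served, strand handling and the annotation are not given in the sources used here. The CAL27 count table has 696 of its 23710 gene symbols altered, 692 of them symbols that hold R1 or R2, so symbols were taken by row position from the A253 count table. The order was checked on gene length: the log2 length implied by deposited counts over TPM was equal in both lines, within 0.01, at 18450 of 18450 rows where both gave one. A further 28 symbols had become dates in both, and these were not named.

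The test of the counts was that of edgeR 4.0.16 (R 4.3.3), with TMM scaling, filterByExpr (13629 genes kept) and a robust quasi-likelihood fit to 3 groups, control, sh 64 and sh 65. The contrast of interest was the mean of both hairpins minus control, and each hairpin against control and sh 65 minus sh 64 were also tested. P-values were adjusted by Benjamini-Hochberg over all 13629 genes, with a threshold of 0.05. The precision is set by 7068155 to 19962159 counts per library and 2 libraries per hairpin and control, and the common coefficient of variation was 0.0655. Alternatives were RLE scaling, no filter, DESeq2 1.42.0, limma 3.58.1 on log2(TPM + 1) and log2(TPM + 0.1), which understates the change of low genes, all knockdown libraries as 1 group, a replicate block, and each library left out. With a control left out, the lone control is assumed to vary like the other groups. Counts given under the other alternatives leave out the block and the omitted libraries. The scripts were tested on simulated data.

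The members and gene lists were chosen with earlier results of these data known. The genes named by rule were EHF, the 10 largest rises and falls called alike by both hairpins at a mean log2 CPM of 2 or more and with knockdown and control libraries not overlapping, the 2 largest of each direction in every list on the same terms at a mean log2 CPM of 0 or more, and a fixed set of stress genes (ATF4, DDIT3, ATF3, TRIB3, ASNS, CHAC1, SESN2, DDIT4, GDF15, HSPA5, XBP1, HMOX1, NQO1, TXNRD1, CDKN1A, MDM2, HSPA1A, TXNIP, VEGFA, CA9, FOS, JUN, DUSP1, MT2A, SQSTM1, KRT16 and KRT17). Other list members named were chosen after their values were seen. Promoter letters are from RefSeq on GRCh38.p14, matched by symbol for 10590 of 13629 genes, 909 of them by an older symbol. The SCC25 libraries, the A253 values and the ChIP data were not used here, and a few genes are not reported here.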

Additional observations from a re-analysis of the deposited data

Results flagged for a closer look

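In 3 of the 100 named genes examined 1 of the 4 knockdown libraries stood apart from the other 3, by a gap over the whole range above Dixon's 95% critical value for 4 samples. These were HSPA5 at 0.877, HSPB1 at 0.835 and HSPB8 at 0.976. For HSPA5 the library was sh 64 replicate 1 at 581 CPM, with the others at 321 to 353 CPM. For HSPB1 and HSPB8 it was sh 65 replicate 1. Chance alone passes this critical value in about 5% of groups drawn from a single population. These 4 libraries come from both hairpins, so the share seen here cannot be weighed against that 5%.

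The hairpins differed from each other, by a test of the difference itself, for 24 of the named genes reported here. Values are the log2 change with sh 65 minus that with sh 64, so a negative value is a lower level with sh 65. The negative ones were CYP1A1 (-2.527), CSF2 (-1.681), GDF15 (-1.415), SPRR1A (-1.374), TGM2 (-1.314) and S100A8 (-1.257), followed by RNASE7 (-1.058), VEGFA (-0.9978), JUN (-0.9015), CDKN1A (-0.8404) and DUSP4 (-0.822). Smaller negative differences were those of LCN2 (-0.5154), TXNRD1 (-0.4031), SLC16A1 (-0.3677), TXNIP (-0.3625), XBP1 (-0.3571), KRT17 (-0.2966) and ERO1L (-0.2692). The positive ones were ELF3 (0.8144), RSAD2 (0.6389), IGFBP3 (0.5843), KRT16 (0.3846), ASNS (0.3804) and PLK2 (0.2513). Of the fixed set of stress genes, GDF15, VEGFA, JUN, CDKN1A, TXNRD1, TXNIP, XBP1 and KRT17 had lower levels with sh 65 than with sh 64, and KRT16 and ASNS had higher ones. Since the labels tie no library to a hairpin's identity and the names differ between the tables, only the existence of these differences, and not the hairpin behind each, can be taken from the files.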

How the results depend on the processing

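Of the genes named by rule, ATF4, DUSP1, HMOX1 and HSPA1A, none of them called, changed sign under some alternative. So did the medians of the lists of secreted ATF4 targets, ER sensors, tRNA synthetases, heat shock, ERK feedback, immediate early, p53, cholesterol and basal genes. No called change was reversed. EHF stayed lower and called throughout, at -1.07 to -0.995 on the log2 scale. The count of 2560 genes called by the mean of both hairpins was 1481 by DESeq2, 855 on log2(TPM + 1) without a filter, 1234 with all knockdown libraries as 1 group and 937 to 3038 when single libraries were left out. Higher calls, 1346, became 782 by DESeq2, 814 and 830 on log2(TPM + 1) and log2(TPM + 0.1), 389 on TPM without a filter, 717 with 1 group and 562 to 1557 without single libraries. Lower calls, 1214, became 699 by DESeq2, 466 on TPM without a filter, 517 with 1 group and 375 to 1481 without single libraries. The 1016 genes called alike became 584 by DESeq2, 270 on TPM without a filter and 390 to 1218 without single libraries. Those alike and higher, 576, became 341 by DESeq2, 335 and 355 on TPM with either pseudocount, 155 on TPM without a filter and 268 to 687 without single libraries. Those alike and lower, 440, became 243 by DESeq2, 115 on TPM without a filter and 122 to 531 without single libraries. Hairpin differences, 728, became 450 by DESeq2 and 263 to 1048 without single libraries. The cause of these shifts was not tested, and leaving out a library leaves fewer samples. RLE scaling gave 2558 calls and no filter 2948. Of the 88 named genes called, 5 lost the call by DESeq2, 17 on TPM without a filter, 14 with 1 group and 1 to 13 without single libraries.

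Control replicates and knockdown replicates share numbers, but the labels do not say that a number marks a shared culture or day. Across 11037 genes, deviations from the group means correlated by -0.0232 for control and sh 64, 0.280 for control and sh 65 and 0.101 for the hairpins. These values are mixed and do not settle whether replicates were paired. The numbers were not used as a pairing because the labels give none. A replicate block would call 3317 genes, 664 alike and lower, and 1260 hairpin differences.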
